A study of Mus musculus with 6 samples.

Results

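The circadian clock genes described here are Per1, Per2, Per3, Cry1, Cry2, Nr1d1, Nr1d2, Dbp, Tef and Clock. They were taken by gene symbol, and all 10 were found among the 60832 genes of the count table. RNA was sequenced from cells labelled as mouse liver sinusoidal endothelial cells (LSECs), the endothelium that lines the capillaries of the liver. By the study's methods LSECs were isolated with anti-CD146 beads from digested tissue of colorectal cancer liver metastases (CRCLM). The metastases were grown from HCT116 cells, an established line of human colorectal cancer, in the livers of male BALB/c nude mice, which lack mature T cells. The sensitive group held 3 libraries from bevacizumab-sensitive xenografts, whose hosts received control IgG by the study's methods, and the resistant group held 3 libraries from bevacizumab-resistant xenografts, whose hosts received bevacizumab, an antibody against VEGF-A. All 6 libraries carry the label of 24 h of culture. The labels do not say whether each library came from its own mouse, so p-values measure only the spread between these libraries, which may be technical. The time of day at which the tissue was taken was not given in the sources used here. A difference in that time cannot be told apart from a difference between the groups or the libraries.

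The mammalian clock is a feedback loop of transcription. CLOCK, or its relative NPAS2, pairs with BMAL1 (the product of Arntl) and activates genes that carry E-boxes, among them the Per and Cry genes, whose proteins come back to block that pair. In another arm, the receptors encoded by Nr1d1 and Nr1d2 (REV-ERBα and REV-ERBβ) repress Arntl, and ROR receptors activate it. DBP and TEF carry the rhythm to output genes through D-boxes, where NFIL3 represses. Most of these genes are rhythmic in liver, so a bulk sample reads the phase of its cells as well as their level.

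Library totals ran from 17599326 to 20726684 counts, and 3 counts were worth between 0.145 and 0.170 CPM (counts per 1000000 counts of the library). Sensitive replicate 2 stood apart from the other libraries. It had a count in 21792 genes against 23275 to 25970 in the others, its most abundant genes held a larger share of its counts (32.6% against 23.4% to 28.7% in the top 100), and its correlation of log2 CPM across genes with the other libraries was 0.860 to 0.901 where the other pairs gave 0.954 to 0.974 (genes are not independent replicates). The labelled cell type was also checked. All 10 LSEC markers had counts and summed to between 698 and 1213 CPM per library, most of it from Stab1 (496 to 778 CPM). The 12 pan-endothelial markers summed to between 77.6 and 477 CPM, lowest in resistant replicate 2. Among them Mcam, which encodes CD146, had 0.31 to 3.87 CPM on 6 to 79 counts. By contrast, 12 macrophage and Kupffer cell markers summed to between 21989 and 41572 CPM, far above both endothelial sums in every library. LSEC is therefore used here as the label of the samples, and these markers do not show LSECs as their main cell type. The neutrophil marker sum spanned from 178 to 6167 CPM. The clock gene values are those of the whole sample, in which fewer cells of a type and less RNA per cell cannot be told apart.

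The promoters of 5 of these genes are printed first, each with a motif named below. A RefSeq promoter was given for 9 of the 10 genes (GRCm38.p6; 300 bases, of which 250 lie before the transcription start), and not for Per2. Each sequence below runs 5′ to 3′ on the gene's strand, ends before the start or before the first annotated exon base, and has in capitals the E-box CACGTG, the E′-box CACGTT, the D-boxes TTATGTAA, TTACGTAA, TTATGCAA and TTACATAA (the first and last are reverse complements of each other), and the core AGGTCA of the REV-ERB and ROR element, on either strand. The Per1 window lies at chr11:69098699-69098947 (+), the Cry1 window at chr10:85185065-85185304 (−), the Nr1d1 window at chr11:98775378-98775627 (−), the Nr1d2 window at chr14:18239128-18239356 (−) and the Tef window at chr15:81811164-81811413 (+). Per1 and Tef each have another annotated start, whose window is not printed. The windows of Clock, Cry2, Dbp and Per3 are not printed either, although some of these genes share in the patterns described below. That of Dbp held none of these motifs, and 159 of its 250 bases lie in annotated exons.
Per1: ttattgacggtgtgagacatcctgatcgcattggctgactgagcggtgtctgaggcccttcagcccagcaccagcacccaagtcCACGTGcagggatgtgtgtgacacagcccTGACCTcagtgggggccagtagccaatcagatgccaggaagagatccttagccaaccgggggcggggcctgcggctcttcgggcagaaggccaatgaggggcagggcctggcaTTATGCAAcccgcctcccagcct
Cry1: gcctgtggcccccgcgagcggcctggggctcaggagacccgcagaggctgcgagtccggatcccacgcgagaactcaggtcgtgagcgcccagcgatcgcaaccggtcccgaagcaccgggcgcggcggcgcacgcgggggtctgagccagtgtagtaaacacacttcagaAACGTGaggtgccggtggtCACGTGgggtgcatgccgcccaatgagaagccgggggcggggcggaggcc
Nr1d1: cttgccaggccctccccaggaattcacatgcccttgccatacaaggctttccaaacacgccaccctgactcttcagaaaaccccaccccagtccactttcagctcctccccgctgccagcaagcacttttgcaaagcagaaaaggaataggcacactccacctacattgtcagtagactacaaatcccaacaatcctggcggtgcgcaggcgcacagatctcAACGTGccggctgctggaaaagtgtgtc
Nr1d2: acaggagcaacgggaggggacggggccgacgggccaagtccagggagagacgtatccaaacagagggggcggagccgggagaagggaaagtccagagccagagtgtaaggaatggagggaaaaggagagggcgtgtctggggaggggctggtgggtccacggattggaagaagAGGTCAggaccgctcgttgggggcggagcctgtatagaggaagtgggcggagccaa
Tef: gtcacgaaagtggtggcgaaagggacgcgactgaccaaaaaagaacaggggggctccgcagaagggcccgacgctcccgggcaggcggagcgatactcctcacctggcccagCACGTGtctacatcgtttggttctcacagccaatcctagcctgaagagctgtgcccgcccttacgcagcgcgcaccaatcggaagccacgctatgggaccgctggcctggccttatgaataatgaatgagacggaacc

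The Per1 promoter printed had an E-box 166 bases, an AGGTCA core 137 bases and a D-box 24 bases before its start, and the other RefSeq promoter of Per1 (upstream bases at chr11:69099902-69100151) had none of these motifs. Cry1 had an E-box 60 bases and an E′-box 79 bases before its start. Among all 32851 RefSeq promoters the E-box was present in 7.15% and the E′-box in 4.68%, and among the 9 clock genes with a promoter the E-box was found in 3 (Cry1, Per1 and Tef) and the E′-box in 3 (Cry1, Cry2 and Nr1d1). The D-boxes were present in 1.78% of all promoters and in 2 of the 9 genes, Per1 and Per3. AGGTCA was present in 16.3% of all promoters and in 3 of the 9 genes, Clock, Nr1d2 and Per1. The 9 genes had 13 promoters between them, of which 4 held the E-box, 3 the E′-box, 2 a D-box and 3 AGGTCA. These matches describe letters in a window and were not tested as sites.

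The comparison of resistant with sensitive libraries asks whether samples labelled LSEC from resistant xenografts carried another level of clock gene RNA. In these 6 libraries no clock gene differed between the groups beyond the spread between replicates. All 10 passed the filter on low counts, and in edgeR's quasi-likelihood test 0 of the 10 fell under 0.05 after adjustment of the p-values over all genes and 0 fell under it before. Over all 15474 genes tested the same shares were 0.0% and 3.08%, so a count of 0 of 10 does not set the clock genes apart. The fitted log2 fold change of CPM, resistant over sensitive, was positive for 6 genes and negative for 4, with a median of 0.04 and a range from −0.25 (Cry2) to 0.35 (Per2); the median over all genes tested was 0.0078. In none of the 10 genes were the libraries of the groups separated without overlap in CPM scaled by TMM (trimmed mean of M-values), where 9.02% of all genes tested were (4.64% higher and 4.38% lower in the resistant group).

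**Figure D1:**
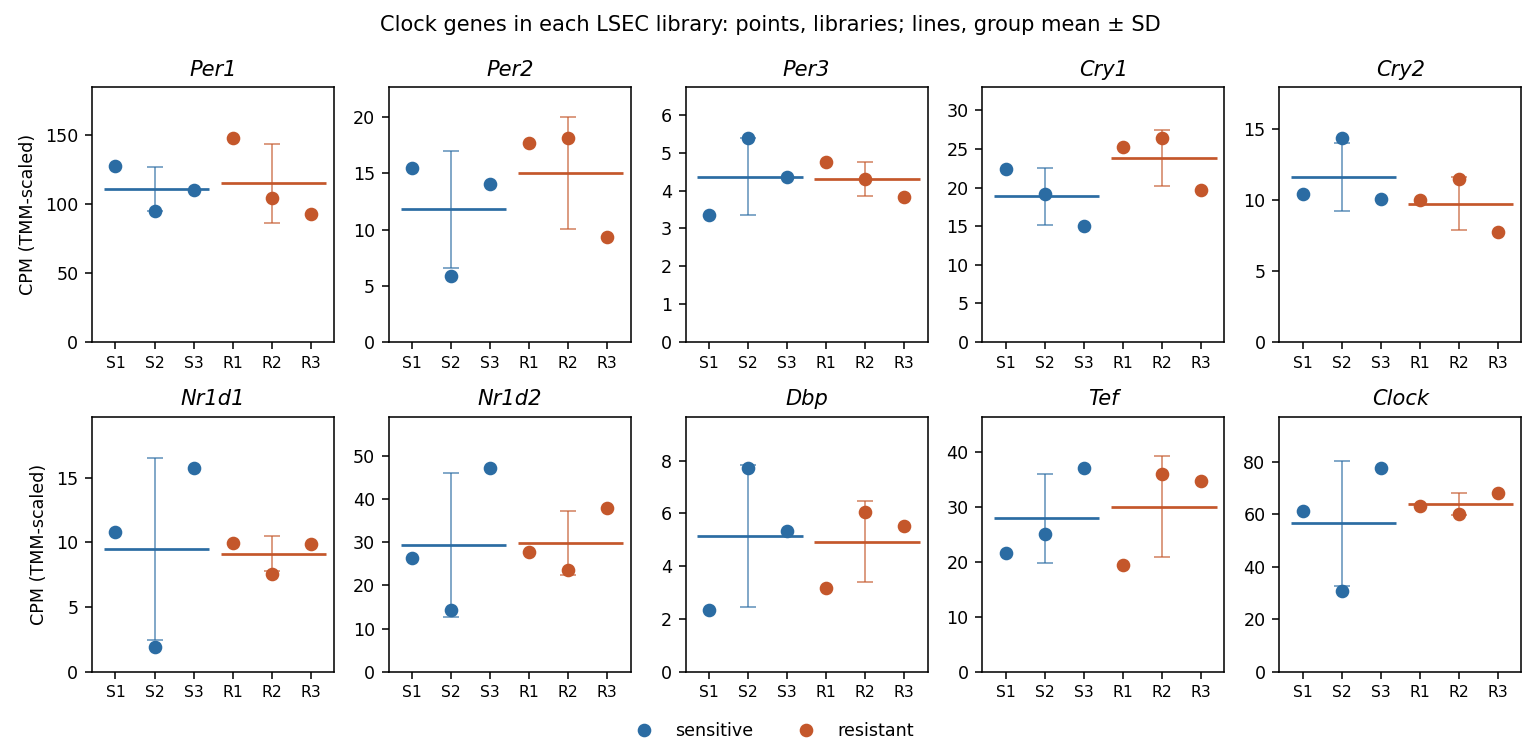
TMM-scaled CPM (vertical axes, each from 0) of the 10 clock genes in the 3 sensitive (S1 to S3, blue) and 3 resistant (R1 to R3, orange) libraries, with points for libraries, horizontal lines for group means and bars for the SD. The groups overlap in every panel, and S2 is the lowest point for Per2, Nr1d1, Nr1d2 and Clock and the highest for Per3, Cry2 and Dbp.

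The Per genes encode the PERIOD repressors of the loop. Per1 (ENSMUSG00000020893, chr11:69095217-69109960, + strand, GRCm38) was the most abundant, with 127, 94.9 and 109.9 CPM in sensitive replicates 1 to 3 and 148, 104 and 93.0 CPM in resistant replicates 1 to 3. Its highest and lowest values were both in the resistant group. For Per1 the log2 fold change was 0.05 (SE 0.242, 95% interval −0.52 to 0.62, adjusted p = 0.974), and Per1 had at least 1463 counts in every library, so counting error was small beside the spread between libraries. Its interval was the narrowest of the 3 Per genes.

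Per2 (ENSMUSG00000055866, chr1:91415982-91459324, − strand) had 15.5, 5.84 and 14.1 CPM in the sensitive and 17.7, 18.1 and 9.33 CPM in the resistant libraries. Sensitive replicate 2 was lowest and resistant replicate 3 next, and the other 4 libraries lay within 14.1 to 18.1 CPM. For Per2 the log2 fold change was 0.35 (SE 0.442, 95% interval −0.70 to 1.39, adjusted p = 0.940), and it was 0.015 without sensitive replicate 2. Per3 (ENSMUSG00000028957, chr4:151003652-151044665, − strand), whose protein is not required for the core rhythm, had 3.35, 5.39 and 4.36 CPM in the sensitive and 4.76, 4.31 and 3.84 CPM in the resistant libraries, on 70 to 105 counts. All resistant values lay inside the range of the sensitive ones, and the log2 fold change was −0.018 (SE 0.347, 95% interval −0.83 to 0.80, adjusted p = 0.993). Without sensitive replicate 2 that of Per3 was 0.15.

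The cryptochromes Cry1 and Cry2 encode the partners of PERIOD that block CLOCK and BMAL1 directly. Cry1 (ENSMUSG00000020038, chr10:85131700-85185064, − strand) had 22.4, 19.2 and 15.0 CPM in the sensitive and 25.3, 26.4 and 19.6 CPM in the resistant libraries. Resistant replicates 1 and 2 were above every sensitive library and resistant replicate 3 lay inside the range of the sensitive ones. Its log2 fold change of 0.33 (SE 0.249, 95% interval −0.25 to 0.92, adjusted p = 0.940) had the smallest unadjusted p-value of the 10 genes, and the exact two-sided permutation test of its log2 CPM gave p = 0.2, where 3 libraries against 3 allow no p below 0.1. Cry2 (ENSMUSG00000068742, chr2:92403646-92434043, − strand) had 10.4, 14.3 and 10.03 CPM in the sensitive and 9.97, 11.5 and 7.74 CPM in the resistant libraries. Sensitive replicate 2 was the highest here, unlike for Per2. The log2 fold change of Cry2 was −0.25 (SE 0.290, 95% interval −0.93 to 0.43, adjusted p = 0.940), and −0.080 without sensitive replicate 2. The ratio of Cry1 to Cry2 counts within a library, which no size factor changes, was 2.16, 1.34 and 1.49 in the sensitive and 2.54, 2.30 and 2.54 in the resistant libraries. This ratio was formed after the values of both genes were seen, and its separation of the groups, by 2.30 against 2.16 at the nearest, is a description with no test.

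Of the REV-ERB genes, Nr1d1 spread the most between libraries of all 10 clock genes. Nr1d1 (ENSMUSG00000020889, chr11:98767932-98775333, − strand), whose promoter with an E′-box 28 bases before the start is printed above, had 10.8, 1.88 and 15.8 CPM in the sensitive and 9.97, 7.55 and 9.84 CPM in the resistant libraries. The highest library was 8.37 times the lowest, on 29 to 322 counts, and both ends of that range were sensitive libraries. Between the groups the log2 fold change of Nr1d1 was −0.057 (SE 0.661, 95% interval −1.62 to 1.502, adjusted p = 0.988), so these libraries bound a difference only within about that interval. Without sensitive replicate 2 it was −0.55 and the groups no longer overlapped, as in 19.4% of all genes tested in the same 5 libraries, and without sensitive replicate 3 it was 0.53; neither fit gave an unadjusted p-value under 0.05. Nr1d2 (ENSMUSG00000021775, chr14:18204054-18239127, − strand) had 26.5, 14.3 and 47.2 CPM in the sensitive and 27.7, 23.7 and 38.0 CPM in the resistant libraries. The libraries with the highest and lowest values were the same as for Nr1d1, with a 3.31-fold range. The log2 fold change of Nr1d2 was 0.022 (SE 0.435, 95% interval −1.01 to 1.05, adjusted p = 0.994), and −0.31 without sensitive replicate 2.

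DBP and TEF are the D-box activators that the loop drives as outputs. Dbp (ENSMUSG00000059824, chr7:45705088-45710203, + strand) had 2.34, 7.72 and 5.33 CPM in the sensitive and 3.17, 6.06 and 5.54 CPM in the resistant libraries, on 49 to 119 counts. Replicate 1 was the lowest library of each group. For Dbp the log2 fold change was −0.058 (SE 0.510, 95% interval −1.26 to 1.14, adjusted p = 0.986), and 0.35 without sensitive replicate 2. Of its exon bases 18.0% are shared with exons of Sphk2 on the opposite strand. The strand setting of the counting was not given in the sources used here, so reads there cannot be told apart. The same limit holds for 8.55% of the exon bases of Nr1d1 (shared with Thra), 4.67% of those of Cry2 and 2.45% of those of Tef. Tef (ENSMUSG00000022389, chr15:81802421-81826863, + strand) had 21.7, 25.1 and 37.15 CPM in the sensitive and 19.4, 36.1 and 34.75 CPM in the resistant libraries. Replicate 1 was again the lowest of each group. For Tef the log2 fold change was 0.10 (SE 0.327, 95% interval −0.67 to 0.88, adjusted p = 0.959).

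Clock is the member of the positive limb in this set. It (ENSMUSG00000029238, chr5:76209868-76304792, − strand) had 61.2, 30.6 and 77.7 CPM in the sensitive and 63.3, 60.1 and 68.2 CPM in the resistant libraries. Apart from sensitive replicate 2 the libraries lay between 60.1 and 77.7 CPM. For Clock the log2 fold change was 0.18 (SE 0.335, 95% interval −0.62 to 0.97, adjusted p = 0.942), and it was −0.13 without sensitive replicate 2. Arntl, which encodes its partner BMAL1, had 14.9, 6.81 and 16.1 CPM in the sensitive and 17.2, 14.95 and 16.8 CPM in the resistant libraries. The counts of Clock were 4.10, 4.50 and 4.84 times those of Arntl in the sensitive and 3.68, 4.02 and 4.06 times in the resistant libraries, so both genes were low together in sensitive replicate 2. This ratio also separated the groups, but only by 4.10 against 4.06 at the nearest. With Cry1 to Cry2 it was 1 of 2 that did so among 7 ratios taken, again as a description with no test. Of single genes, 9.02% of all tested separated the groups in CPM, and no such share was taken over ratios of other genes.

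**Figure D2:**
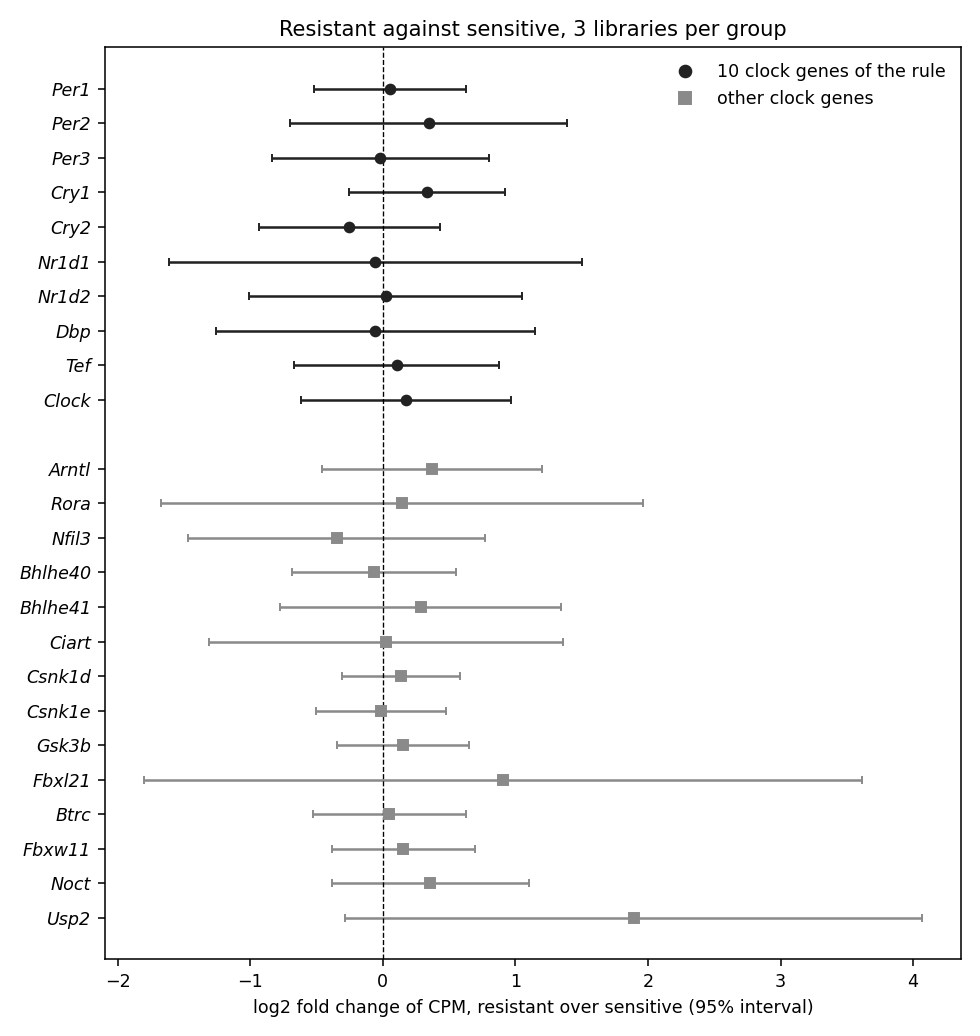
Log2 fold change of CPM, resistant over sensitive (horizontal axis), with its 95% interval from edgeR's quasi-likelihood fit, for the 10 clock genes of the rule (black circles) and the 14 other clock genes that passed the filter on low counts (grey squares), 3 libraries per group. Every interval spans 0, and the intervals of Nr1d1, Rora, Fbxl21 and Usp2 are the widest.

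The rest of the pathway was read from a list of 18 other clock genes chosen by their textbook roles. Of these, 14 passed the filter on low counts, and 0 of the 14 had an adjusted or an unadjusted p-value under 0.05. Over all genes tested the same shares were 0.0% and 3.08%, so a count of 0 does not set this list apart. Arntl2, Npas2, Rorb and Hlf had at most 13 counts in any library and were not tested. Of the 14, 11 had a positive and 3 a negative log2 fold change, with a median of 0.15. Over all genes tested 50.8% were positive, with a median of 0.0078. Sensitive replicate 2 was the lowest library for 9 of the 14, and without it their median was −0.0041. In none of the 14 were the libraries of the groups separated without overlap, where 9.02% of all genes tested were.

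Usp2, a rhythmic deubiquitinase, had the largest fitted difference of the list and the widest spread. It had 2.11, 1.75 and 14.2 CPM in the sensitive and 42.0, 14.9 and 10.4 CPM in the resistant libraries, so sensitive replicate 3 lay above resistant replicate 3. The log2 fold change was 1.89 (SE 0.922, 95% interval −0.29 to 4.07, adjusted p = 0.940). Leaving out sensitive replicate 3 raised it to 3.54 and leaving out resistant replicate 1 lowered it to 1.07, with adjusted p-values of 0.659 and 0.973 in edgeR's test. The genes for kinases and ubiquitin ligase subunits that act on PERIOD and CRYPTOCHROME proteins had narrower intervals, apart from Fbxl21, which had at most 14 counts. Csnk1d, a kinase of PERIOD, had a log2 fold change of 0.14 (95% interval −0.31 to 0.58), and Fbxw11, a ubiquitin ligase subunit for PERIOD, had 0.16 (95% interval −0.39 to 0.70). Bhlhe40 and Bhlhe41, repressors at E-boxes, had −0.064 and 0.28, and Arntl and Nfil3 had 0.37 (95% interval −0.46 to 1.20) and −0.35 (95% interval −1.47 to 0.77).

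Much of the variation in these genes lay between libraries of the same group. The median SD of log2 CPM within groups was 0.474 over the 10 clock genes, against 0.465 over all genes tested, and ranged from 0.260 for Per3 to 1.14 for Nr1d1. Sensitive replicate 2 was the lowest of the 6 libraries for 4 of the 10 genes (Per2, Nr1d1, Nr1d2 and Clock) and the highest for 3 (Per3, Cry2 and Dbp). Among all genes tested it was the lowest for 40.7% and the highest for 33.3%, so its extremes were not particular to the clock. Relative to the median of the other 5 libraries, the CPM in it was 0.189 times for Nr1d1, 0.377 times for Per2, 0.484 times for Clock and 0.515 times for Nr1d2, but 1.43 times for Cry2 and 1.45 times for Dbp. In the rest of the pathway Rora, which encodes a ROR activator of Arntl, was at 0.123 times and Arntl at 0.424 times, whereas Nfil3, the D-box repressor, was at 1.80 times. That library also had the highest neutrophil marker sum, 6167 CPM against 178 to 3166 CPM, and the highest macrophage marker sum. The macrophage markers did not move together. Marco, Cd5l, Clec4f, C1qa, C1qb and Timd4 were highest in that library, but Adgre1, Csf1r, Cd68 and Vsig4 were lowest in it. The part of either cell type in the clock gene values was not tested.

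**Figure D3:**
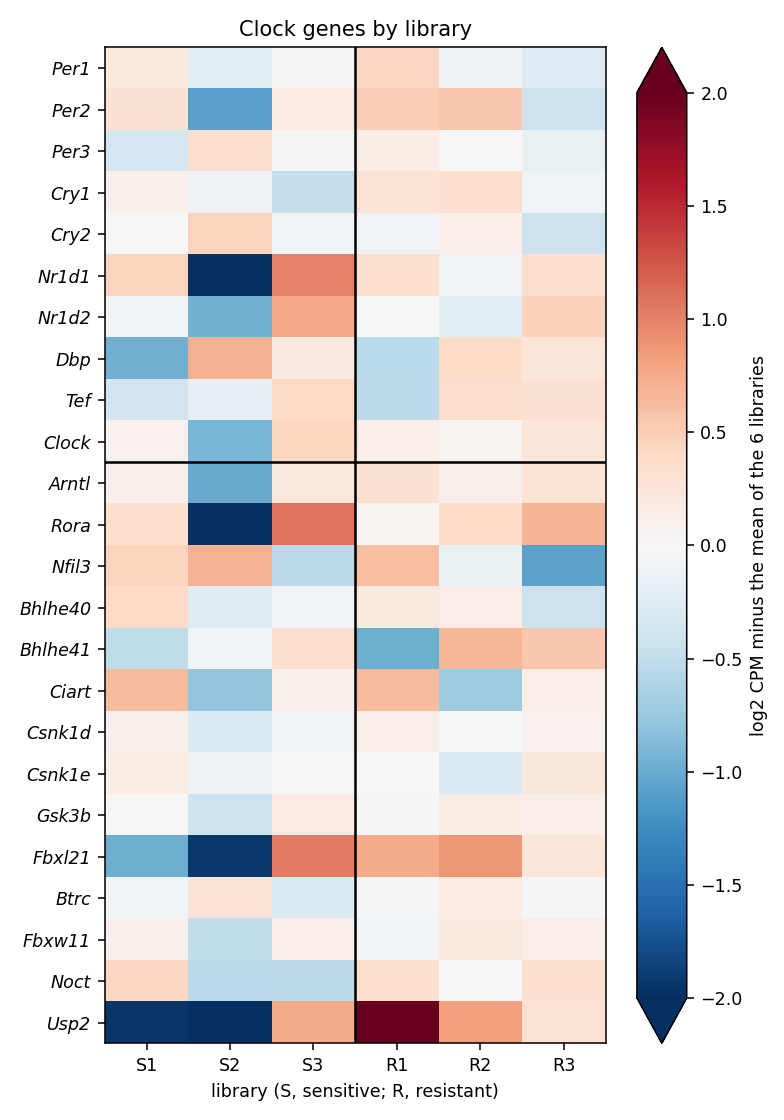
Log2 CPM minus the mean of the 6 libraries (colour, cut at −2 and 2) for each tested clock gene (rows, the 10 genes of the rule above the line) in each library (columns, S sensitive and R resistant). The column S2 holds the strongest negative values of the upper block, in Nr1d1 and Per2, and the columns S1 and R1 share positive values for Per1 and negative ones for Dbp and Tef.

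Libraries of the same number were also compared across the groups. Replicate 2 was highest in both groups for Cry2 and Dbp and lowest in both for Clock, Nr1d1 and Nr1d2, where the shares of all genes tested were 13.2% and 16.1%. Replicate 3 was highest in both for Clock and Nr1d2 and lowest in both for Cry1 and Cry2, against 13.2% and 12.3% of all genes. In both groups replicate 1 had the highest Per1 and the lowest Dbp and Tef, although these are all targets of the same loop. The count of Per1 was 54.3 times that of Dbp in sensitive replicate 1 and 46.5 times in resistant replicate 1, and 12.3 to 20.6 times in the other 4 libraries. Per1 was 5.87 and 7.59 times Tef in the same pair and 2.68 to 3.78 times in the other 4. The ratios of Per1 to Dbp and to Tef restate this pattern and add no support to it. Per1 was higher, and Dbp and Tef were lower, in both libraries of that pair than in any other library. Nfil3, which opposes DBP and TEF at D-boxes, was 27.9 and 23.0 times Dbp in that pair and 4.12 to 10.1 times in the others. Replicate 1 was highest in both groups for 10.1% of all genes tested and lowest in both for 8.61%, so 1 and 2 of the 10 clock genes lie near those shares. The replicate numbers are not stated to mark a shared day or animal, and the cause of these shared positions was not tested.

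A contrast of the loop's limbs was taken within each library, as the mean log2 CPM of Arntl, Npas2 and Clock minus that of Per1, Per2, Per3, Nr1d1, Nr1d2, Dbp and Tef. It was −0.75, −1.96 and −1.43 in the sensitive and −1.39, −1.27 and −0.73 in the resistant libraries, so the groups overlapped. Because Npas2 had at most 13 counts, the contrast was also taken with Arntl and Clock alone, a choice made after seeing the data. It was then 1.12, 0.43 and 0.87 in the sensitive and 1.08, 0.86 and 1.10 in the resistant libraries, again with overlap and with sensitive replicate 2 lowest. The change of sign comes from the removal of a low gene and has no meaning of its own.

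Levels of different genes were compared as FPKM (fragments scaled by gene length and library size). Over the 6 libraries Per1 had a mean of 20.2 ± 4.91 FPKM (SD, n = 6), followed by Cry1 with 6.41 ± 1.49, Nr1d2 with 5.52 ± 2.21 and Clock with 4.43 ± 1.29. Tef had 3.67 ± 0.981 FPKM, Nr1d1 3.08 ± 1.52, Per2 2.33 ± 0.913, Cry2 1.67 ± 0.249 and Dbp 1.64 ± 0.547. Per3 was lowest with 0.448 ± 0.0563 FPKM. Among neighbours in this order, Per1 lay above Cry1 and Dbp above Per3 in all 6 libraries with ranges that did not overlap, and the other 7 neighbouring pairs overlapped. The mean FPKM of Per1 was above that of 83.4% of the genes tested and that of Per3 above 11.9%, while Clock lay near the middle at 51.0%. Clock at 4.43 FPKM exceeded its partner Arntl, at a mean of 1.95 FPKM, and Nfil3, with 25.9 FPKM, lay above Dbp and Tef, which act at the same D-boxes, with ranges that did not overlap.

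**Figure D4:**
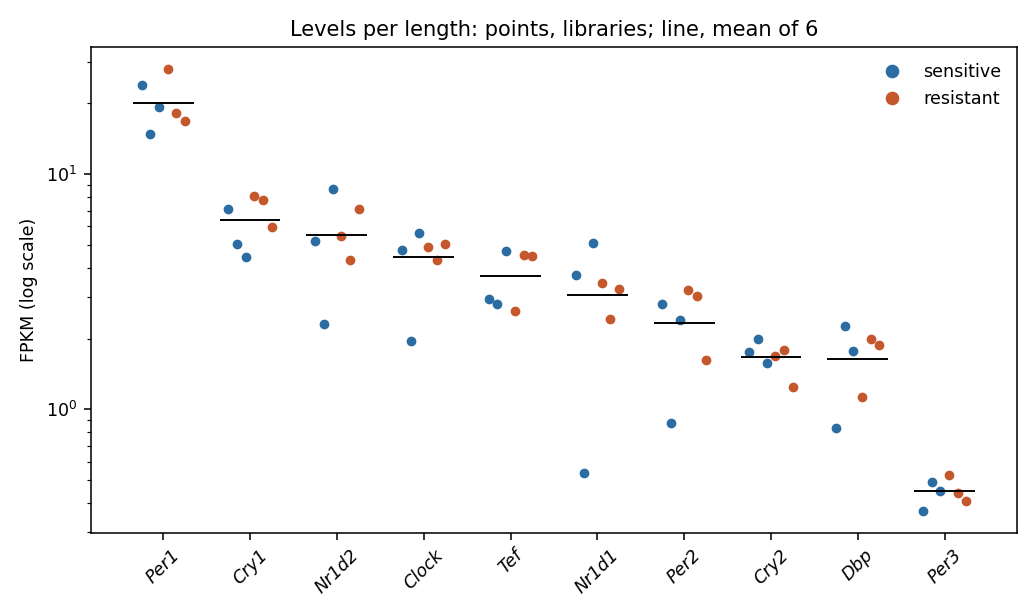
FPKM on a log axis for the 10 clock genes, ordered by the mean of the 6 libraries (black line), with a point for each sensitive (blue) and resistant (orange) library. Per1 sits above all other genes and Per3 below, except that Nr1d1 in 1 sensitive library, at 0.536 FPKM, comes close to the Per3 values.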

How the data were processed

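RNA-seq was done on 6 libraries, 3 per group, assigned by their titles. The authors aligned reads with Hisat2 2.0.5 and counted them per gene with featureCounts 1.5.0-p3, and deposited whole-number counts without normalization. They also deposited FPKM, the count scaled by gene length and by the library total. Both a poly(A) capture and a ribosomal RNA depletion are described for the libraries. The submitters' processing notes name mm9, but the gene lengths implied by FPKM equal the exon lengths of GENCODE M21 (GRCm38) for all 10 clock genes, so coordinates are of GRCm38. A deposited table of the authors' own comparison holds fold changes and p-values and was not used.

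Groups were compared with edgeR 4.0.16 under R 4.3.3 (filterByExpr, TMM, robust quasi-likelihood test, two-sided, no covariate). The Benjamini-Hochberg adjustment ran over the 15474 genes tested, with a threshold of 0.05. Log2 CPM used a prior count of 2. Standard errors and 95% intervals are those implied by the F statistic. Alternatives were other size factors, other filters, DESeq2 1.42.0, limma 3.58.1 (voom, and log2(FPKM + 1)), no robust moderation, a replicate block and leaving out each library. Reads had no molecular identifiers, so intervals from counting alone would be too narrow.

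The clock genes and all lists were chosen with earlier results of these data known. The clock genes named are all 10 clock genes of the rule and genes of the list of 18 other clock genes. A few genes of the pathway are not reported here. Marker lists are given as sums, with some of their genes also named. Correlations between clock genes over libraries are not reported, because 1 library stands apart from the other 5.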

Additional observations from a re-analysis of the deposited data

How the results depend on the processing

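No clock gene of the 10 had an unadjusted or adjusted p-value under 0.05 under any alternative run, and the lowest adjusted p-value over the 150 refitted values was 0.659. Of those values, 121 kept their sign and 29 changed it, 16 of the latter on leaving out a library, so the signs of the small differences carry no weight. The differences (log2, resistant over sensitive) that changed sign were Per3, with 0.065 for library totals alone, 0.069 with no filter, 0.024 in limma-voom and 0.021 on log2(FPKM + 1), Dbp, with 0.037, 0.048, 0.075 and 0.049 under the same settings, and Nr1d1, with 0.31 in limma-voom and 0.18 on log2(FPKM + 1). On leaving out each library in turn, the range was −0.16 to 0.19 for Per1, −0.17 to 0.15 for Per3, −0.55 to 0.53 for Nr1d1, −0.31 to 0.56 for Nr1d2, −0.40 to 0.35 for Dbp, −0.046 to 0.37 for Tef and −0.13 to 0.48 for Clock. It was 0.015 to 0.60 for Per2, 0.20 to 0.48 for Cry1 and −0.37 to −0.080 for Cry2, which kept their sign under all alternatives run. The number of the 10 genes with groups that did not overlap ranged from 0 to 2 in the same refits (Cry1 without sensitive replicate 1, Nr1d1 without sensitive replicate 2, Cry2 without resistant replicate 2, Cry1 and Per2 without resistant replicate 3), where 12.6% to 26.4% of all genes tested did not overlap.

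Of the other clock genes, Bhlhe40 changed sign on log2(FPKM + 1), at 0.0017, Ciart in limma-voom, at −0.0048, and Csnk1e with library totals alone (0.041), no filter (0.053) and log2(FPKM + 1) (0.037). Leaving out each library gave −0.38 to 0.88 for Rora, −0.20 to 0.15 for Bhlhe40, −0.33 to 0.42 for Ciart, −0.13 to 0.12 for Csnk1e, −0.0041 to 0.29 for Gsk3b, −0.064 to 0.21 for Btrc and −0.032 to 0.27 for Fbxw11. Of the 14 tested, 1 had an unadjusted p-value under 0.05 with DESeq2, 1 in limma-voom and 1 on log2(FPKM + 1), in each case Usp2. Among the 15474 genes tested, DESeq2 gave 732 such values, limma-voom 384 and log2(FPKM + 1) 473. On leaving out each library the list had 0 to 1 (Noct without sensitive replicate 1, Usp2 without sensitive replicate 3). Over all genes those 2 refits gave 602 and 1056. The limb contrast in sensitive replicate 2 was −2.61 with a prior count of 0.5. On log2(FPKM + 1) it was −0.83, −0.88 and −0.73 in sensitive replicates 2 and 3 and resistant replicate 1. Without Npas2 it was 1.12, 0.43 and 0.87 in the sensitive and 1.08, 0.86 and 1.10 in the resistant libraries.

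Over all genes, edgeR called 0 after adjustment and 476 at an unadjusted p-value under 0.05 (83 higher in the resistant group). With no filter the adjusted count was 2 and the unadjusted 2036, 205 of them higher. DESeq2 gave 24 and 732, and on log2(FPKM + 1) 148 were higher. Leaving out each library gave 167 (without resistant replicate 3) to 1056 (without sensitive replicate 3) unadjusted calls, 34 to 200 of them higher.

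Deviations of same-numbered libraries from their group means had correlations of −0.00093, 0.034 and 0.194 across genes for replicates 1 to 3. The labels do not say what the numbers mark, and whether such libraries share a day or animal was not tested. With the replicate number as a block, 0 clock genes passed and the differences of Per3 (0.0010), Dbp (0.042) and Nr1d1 (0.33) had the other sign. The causes of these changes were not tested. With 3 libraries per group and 29 to 322 counts for Nr1d1 and 49 to 119 for Dbp, differences of the size of their intervals cannot be told from 0 here.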

Other observations

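Per1 is also a known target of the glucocorticoid receptor, and 6 other glucocorticoid-induced genes (Tsc22d3, Fkbp5, Klf9, Sgk1, Dusp1 and Zbtb16) were read beside it. All 6 passed the filter on low counts and 0 had an unadjusted p-value under 0.05, where 3.08% of all genes tested did. Of their log2 fold changes 1 was positive and 5 were negative, with a median of −0.078. Dusp1, a phosphatase of MAP kinases, had 338, 226 and 181 CPM in the sensitive and 339, 199.6 and 158 CPM in the resistant libraries. Its highest library in each group was replicate 1, as it was for Per1 and for no other gene of the 6. Replicate 1 was highest in both groups for 10.1% of all genes tested, and a link of Dusp1 with Per1 was not tested. Klf9, a transcription factor that also follows the clock in several tissues, had 159, 61.5 and 177 CPM in the sensitive and 166, 133 and 157 CPM in the resistant libraries, with sensitive replicate 2 lowest as for Clock and Nr1d2. AGAACA, a core of glucocorticoid receptor elements, was present in 19.0% of the 32851 RefSeq promoters and, of the 9 clock genes with a promoter, in that of Tef, 209 bases before the start printed above.

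The order of the libraries by Nfil3, from highest, was sensitive replicate 2, resistant replicate 1, sensitive replicate 1, resistant replicate 2, sensitive replicate 3 and resistant replicate 3. The order by the summed level of 6 neutrophil markers differed from it only in that sensitive replicate 1 and resistant replicate 1 changed places. Sensitive replicate 2 was the highest library for 33.3% of all genes tested, and the share of genes with such an order was not taken. The neutrophil sums were 3166, 6167 and 245 CPM in the sensitive and 1065, 694 and 178 CPM in the resistant libraries, and their part in the Nfil3 values was not tested.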
